A study of Mus musculus with 10 samples.

Results

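Transcripts of 10 antioxidant defence genes were examined in mouse T cell acute lymphoblastic leukemia (T-ALL), out of 16865 gene symbols in the deposited table. The genes were taken by name as a list of peroxiredoxin, thioredoxin, glutathione peroxidase and superoxide dismutase genes with the regulator of the programme: Prdx1, Prdx2, Prdx5, Txn1, Txnrd1, Gpx1, Gpx4, Sod1, Sod2 and Nfe2l2. RNA was sequenced from leukemic spleens of irradiated C57BL/6 recipients injected into a vein with T-ALL cells that carry a conditional knockout of Sirt1, which encodes a deacetylase that uses NAD. The control group was 5 recipients given only the corn oil vehicle, and the Sirt1 deleted group was 5 recipients given 3 mg of tamoxifen in corn oil. Both groups carry the conditional allele, and tamoxifen without deletion was not among the groups, so the drug and the deletion cannot be told apart. The labels do not name the Cre driver, the age of the mice or how many separate leukemias were injected, and nothing says whether the 5 samples of a group came from separate leukemias, so p-values measure only the spread between these samples.

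Cells remove reactive oxygen in steps. Superoxide dismutases turn superoxide into hydrogen peroxide; peroxiredoxins, which are recycled by thioredoxin, and glutathione peroxidases, which use glutathione, then reduce the peroxide. Thioredoxin reductase recharges thioredoxin with electrons from NADPH. NRF2, the protein of Nfe2l2, is held low by KEAP1 and, when released, pairs with small MAF proteins to switch on many of these enzymes at antioxidant response elements. Leukemic T cells divide fast and make peroxide in their mitochondria, and red cells and macrophages of the spleen are also rich in several of these enzymes.

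All 10 genes passed the filter on low values, with normalized counts from 1560 to 19910 in single libraries. Estimated depth was 21.3 to 44.5 M reads per library, and the value with the fewest reads behind it, Prdx5 in Sirt1 deleted library 3, rested on about 1256 reads, a counting error of 2.82% that covers counting alone. Sirt1, checked first, was 1324, 1348, 1174, 1192 and 1126 in control libraries 1 to 5 and 922, 824, 1071, 1061 and 710 in Sirt1 deleted libraries 1 to 5. All Sirt1 deleted libraries lay below all controls, with a mean at 74.4% of control (log2 difference -0.44, limma adjusted p = 0.0125; -0.25 after correction for transcript length and GC content). The table sums each gene, so it does not show whether the deleted part of Sirt1 is gone. T cell markers were high in every library: 20 of them summed to 352429 to 379700 normalized counts in controls and to 341876 to 389974 in Sirt1 deleted libraries, with 4 called higher, 2 lower and none at 0. B cell markers summed to 1605 to 1717 and 1478 to 1802, of which Pou2af1, called lower, made up 57.3% to 74.9%. Without it they summed to 414 to 532 and 467 to 713. Of the 15 tested, Pou2af1 among them, 3 were called higher and 2 lower, with a median log2 difference of 0.38. Ebf1, which was not tested, was at 0 in 4 libraries, 3 of them Sirt1 deleted. Dendritic and NK cell markers summed to 286 to 329 and 250 to 318 without Gzma, which alone stood at 9035 to 11379. Of the 8 tested, Gzma among them, 0 were called higher and 1 lower.

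As deposited, 4 of the 10 antioxidant transcripts rose in the Sirt1 deleted group (Sod1, Gpx4, Prdx5 and Prdx1) and 1 fell (Txnrd1), by limma with an adjusted p under 0.05 over all 13567 tested genes. Among all tested genes, 14.5% were called higher, 17.5% lower and 32% in either direction. The other 5 (Txn1, Prdx2, Gpx1, Sod2 and Nfe2l2) were not called. The means of those that rose were at 115% to 128% of control, and the median log2 difference of the 10 was 0.16 against 0.00 for all tested genes. For 3 of the 10 (Sod1, Gpx4 and Prdx1) every Sirt1 deleted library lay above every control; groups were apart in this way, in either direction, for 16.5% of tested genes.

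**Figure D1:**
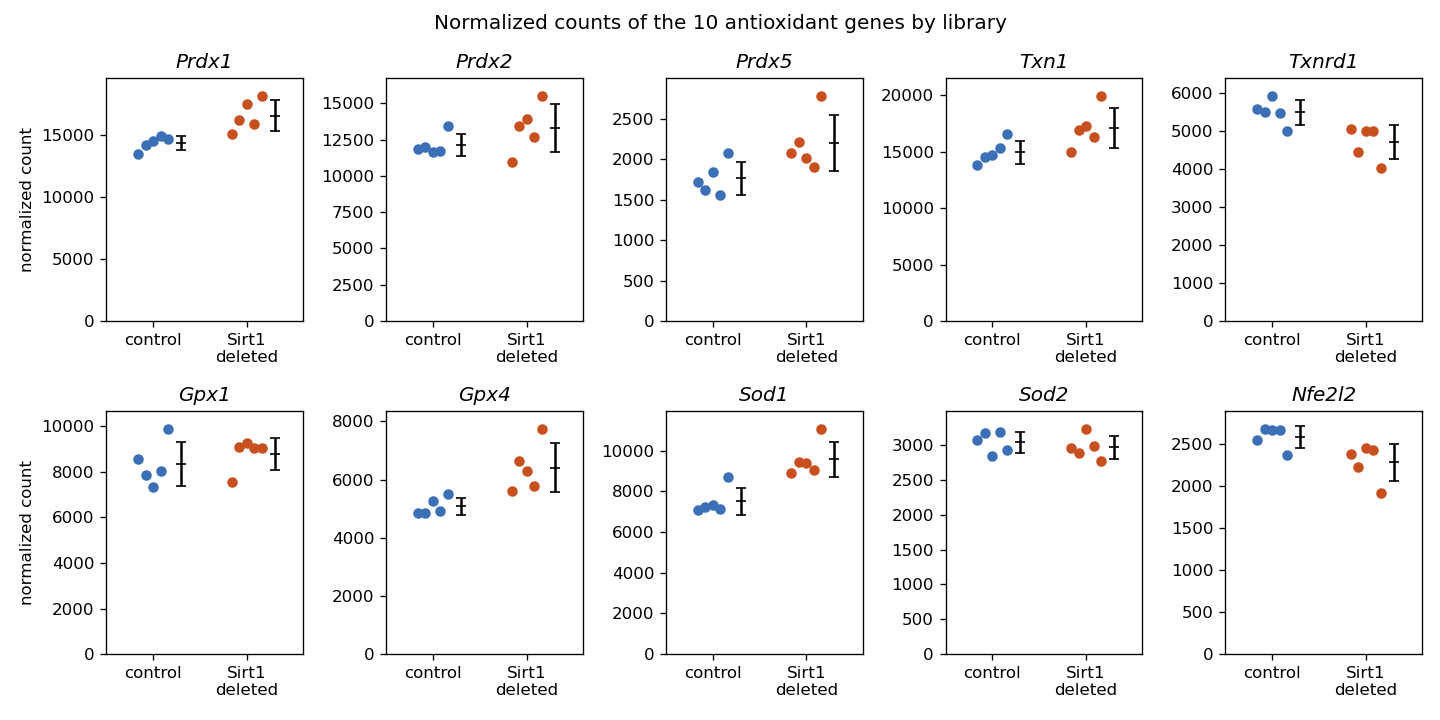
Normalized counts of the 10 genes in each library (points; 5 control, 5 Sirt1 deleted), with the mean and SD of each group as a black bar beside the points; each vertical axis starts at 0. Sod1, Gpx4 and Prdx1 have every Sirt1 deleted library above every control, Txnrd1 has lower Sirt1 deleted libraries with a small overlap, and Sod2 is level.

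The length of the transcripts has to be read beside these values, because each library had its own trend of level with transcript length. The length slope of a library, in log2 units per doubling of transcript length, averaged 0.0981 ± 0.0615 over controls and -0.0981 ± 0.0862 over Sirt1 deleted libraries (SD, n = 5 each; exact permutation p = 0.00794, two-sided, the smallest that 5 against 5 allows). Short transcripts stood higher in the Sirt1 deleted libraries. Genes were sorted by their longest coding transcript into 5 classes of equal size, and of the shortest class, up to 1784 bases, 44.7% were called higher and 1.17% lower. Of the 10 genes, 6 fell in that class (Sod1, Gpx4, Txn1, Gpx1, Prdx5 and Prdx2), and 3 of these 6 were called higher. Txnrd1 (3622 bases), Nfe2l2 (2475 bases) and Prdx1 (2294 bases) lay between 2000 and 4000 bases, where 9.66% of genes were called higher and 8.7% lower. After each library was corrected for transcript length and GC content, 2 of the 10 were called higher (Prdx1 and Sod2) and 0 lower, with 5 at an unadjusted p under 0.05. Over all 12397 corrected genes 8.49% were called higher, 6.14% lower and 14.6% in either direction. An unadjusted p under 0.05 in limma was held by 32.7% of them.

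**Figure D2:**
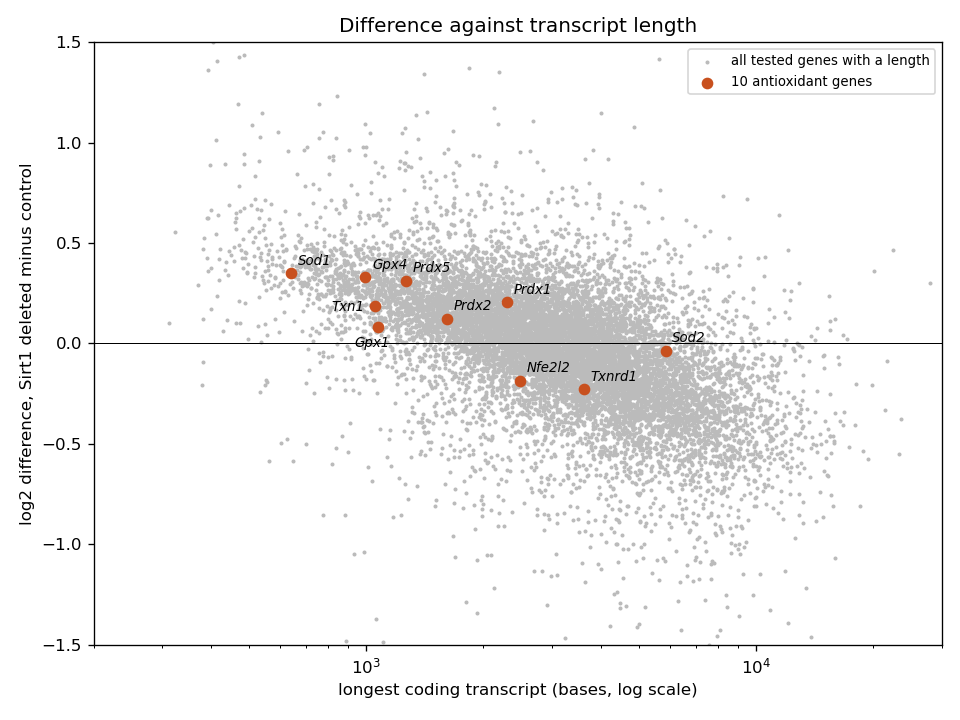
Log2 difference (Sirt1 deleted minus control) against the longest coding transcript of each gene in bases (log scale), for all tested genes with a known length (grey) and for the 10 antioxidant genes (orange); genes past the axis limits are not drawn. The grey cloud slopes down from short to long transcripts; Sod1, Gpx4 and Prdx5 lie within its short end, Prdx1 and Sod2 lie on its upper side for their length, and Gpx1 on its lower side.

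Superoxide dismutases come first in the chain. Sod1 encodes the copper and zinc enzyme of the cytosol (chromosome 16, 90220754 to 90226329, GRCm38). Its normalized counts were 7100, 7213, 7346, 7131 and 8693 in control libraries 1 to 5. In Sirt1 deleted libraries 1 to 5 they were 8903, 9440, 9387, 9054 and 11039. The lowest Sirt1 deleted library stood just above the highest control, library 5, so the groups did not overlap. Sod1 rose from 7497 ± 676 to 9565 ± 854 (SD, n = 5), a log2 difference of 0.35 (SE 0.0723, limma adjusted p = 0.00855, exact permutation p = 0.00794). With 641 bases it has the shortest transcript of the 10, and after correction the difference was -0.01 (adjusted p = 0.904 in limma). This call changed with the length used: with the median length of the coding transcripts for all genes Sod1 was called higher by 0.19 (limma adjusted p = 0.0131).

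Sod2 encodes the manganese enzyme of the mitochondrial matrix (chromosome 17, 13006846 to 13040063). Control libraries held 3071, 3173, 2847, 3180 and 2926 normalized counts, and Sirt1 deleted libraries 2955, 2879, 3223, 2992 and 2775. High and low libraries were found in both groups, and the log2 difference was -0.04 (95% interval -0.16 to 0.08, limma adjusted p = 0.632). After correction Sod2 was called higher, by 0.26 (SE 0.0519, limma adjusted p = 0.00940), and the corrected groups did not overlap. That value rests on the longest of its 2 coding transcripts, 5861 bases against 451 for the other. With the median length of the coding transcripts in its place the difference was 0.16 (limma adjusted p = 0.0208). The ratio of Sod1 to Sod2 counts in a library was 2.48 ± 0.308 over controls and 3.24 ± 0.434 over Sirt1 deleted libraries, a description of transcripts of very unlike length.

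Peroxiredoxins are the most abundant peroxide-reducing enzymes in many cells. Prdx1 encodes a cytosolic form (chromosome 4, 116685544 to 116700822). Control libraries held 13462, 14210, 14536, 14950 and 14714 normalized counts. Sirt1 deleted libraries held 15116, 16205, 17542, 15944 and 18145. Every Sirt1 deleted library was above every control, by the least margin in Sirt1 deleted library 1. Prdx1 rose from 14374 ± 577 to 16590 ± 1231 (SD, n = 5), a log2 difference of 0.20 (SE 0.0581, limma adjusted p = 0.0205). It was the one gene of the 10 called both as deposited and after correction with the longest transcript, where the difference was 0.22 (limma adjusted p = 0.0179). With median lengths, 661 bases for Prdx1, it was 0.17 (limma adjusted p = 0.0261), and there Sod1 was called in both as well. The corrected groups did not overlap for Prdx1 and Sod2, 2 of the 10, against 10% of all corrected genes. Prdx1 was not called without the 3 libraries of steepest length slope (0.14 as deposited, limma adjusted p = 0.212).

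Prdx2, the peroxiredoxin that is also one of the main proteins of red cells (chromosome 8, 84969587 to 84974834), was not called. Control libraries held 11841, 12002, 11668, 11690 and 13460 normalized counts, and Sirt1 deleted libraries 10922, 13412, 13889, 12705 and 15471. Sirt1 deleted library 1 was the lowest of all 10 libraries and Sirt1 deleted library 5 the highest. The log2 difference was 0.12 (95% interval -0.05 to 0.30, limma adjusted p = 0.254) and 0.00 after correction. Red cell markers were lower in the Sirt1 deleted group, unlike Prdx2. Of 21 erythroid genes 0 were called higher and 7 lower, with none at 0. Their sum was 88126 to 121381 in controls against 51151 to 106076 in Sirt1 deleted libraries (exact permutation p = 0.0397). These suspensions had gone through red cell lysis. The lowest erythroid sum, 51151, was that of Sirt1 deleted library 1, which was also lowest for Prdx2. Other libraries did not pair in this way. Sirt1 deleted library 5, highest for Prdx2, had an erythroid sum of 71931. Control library 1 had the highest erythroid sum, 121381, with 11841 normalized counts of Prdx2. With the mean of these markers as a covariate the difference of Prdx2 was 0.21 (limma adjusted p = 0.0913). In bulk RNA, fewer cells of a type and less RNA per cell cannot be told apart.

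Prdx5 encodes a peroxiredoxin found in mitochondria, peroxisomes and cytosol (chromosome 19, 6906697 to 6910106), and was the least abundant of the 10 by normalized count. Control libraries held 1718, 1615, 1847, 1560 and 2070 normalized counts. Sirt1 deleted libraries held 2081, 2213, 2018, 1899 and 2774. Control library 5 reached into the Sirt1 deleted range, and Sirt1 deleted library 5 stood well above the rest. Prdx5 rose by 0.31 on the log2 scale (SE 0.102, limma adjusted p = 0.0344), which was 0.03 after correction (adjusted p = 0.769) and 0.18 without the 3 steepest libraries (adjusted p = 0.281).

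Txn1 encodes cytosolic thioredoxin (chromosome 4, 57943373 to 57956411). Its control values were 13797, 14504, 14675, 15307 and 16534 normalized counts, and its Sirt1 deleted values 15021, 16900, 17304, 16315 and 19910. Sirt1 deleted library 1 lay below controls 4 and 5, and control 5 also above Sirt1 deleted library 4, so the groups overlapped. The log2 difference was 0.19 (95% interval 0.03 to 0.35), which missed the threshold over all genes (limma adjusted p = 0.0656, exact permutation p = 0.0397), and it was -0.01 after correction or, with median lengths, 0.15 (limma adjusted p = 0.0735). Txnrd1 encodes cytosolic thioredoxin reductase, which recharges that protein (chromosome 10, 82833951 to 82897712). Control libraries held 5578, 5499, 5912, 5468 and 5002 normalized counts, and Sirt1 deleted libraries 5047, 4447, 5000, 5003 and 4036. Control library 5 lay at the level of Sirt1 deleted libraries 1, 3 and 4, and the other 4 controls were above every Sirt1 deleted library. Txnrd1 fell from 5492 ± 326 to 4707 ± 449 (SD, n = 5), a log2 difference of -0.23 (SE 0.0702, limma adjusted p = 0.0285). After correction it was -0.15 (95% interval -0.27 to -0.03) and not called (limma adjusted p = 0.0853). The ratio of Txn1 to Txnrd1 counts was 2.74 ± 0.343 over controls and 3.69 ± 0.759 over Sirt1 deleted libraries.

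Txnrd1, Gpx1 and Gpx4 are selenoproteins, in which a TGA codon that would otherwise end translation is read as selenocysteine, the residue that does the chemistry. The annotation places that codon at chr10:82896037-82896039 in Txnrd1, chr9:108339451-108339453 in Gpx1 and chr10:80054737-80054739 in Gpx4 (GENCODE M21, GRCm38, plus strand). The transcript sequence around it is shown because these 3 genes share this feature while Txnrd1 fell, Gpx4 rose and Gpx1 was not called. The TGA is in capitals.
Txnrd1: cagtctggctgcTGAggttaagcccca
Gpx1: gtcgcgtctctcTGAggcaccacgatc
Gpx4: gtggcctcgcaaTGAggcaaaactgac
In Txnrd1 the codon is followed by ggt and then the stop codon taa, so the selenocysteine is the last residue but one.

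Gpx1 encodes the cytosolic and mitochondrial glutathione peroxidase, which is abundant in red cells (chromosome 9, 108338903 to 108340343). Control libraries held 8562, 7846, 7316, 8017 and 9857 normalized counts, and Sirt1 deleted libraries 7547, 9074, 9261, 9032 and 9027. Control library 5 was the highest of all, and Sirt1 deleted library 1 stood apart below the other 4 of its group. The log2 difference was 0.08 (95% interval -0.09 to 0.26, limma adjusted p = 0.447). After correction its sign turned to -0.22 (95% interval -0.38 to -0.05) and it was not called (limma adjusted p = 0.0673). Erythroid markers as a covariate gave 0.21 (limma adjusted p = 0.0561); the part of red cells in the values of Gpx1 was not tested beyond this.

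Gpx4 encodes the glutathione peroxidase that reduces lipid peroxides in membranes and guards against ferroptosis (chromosome 10, 80047166 to 80056439). Control libraries held 4866, 4840, 5250, 4918 and 5502 normalized counts. Sirt1 deleted libraries held 5608, 6655, 6301, 5764 and 7726. Every Sirt1 deleted library was above every control, with control library 5 and Sirt1 deleted library 1 close together. Gpx4 rose from 5075 ± 290 to 6411 ± 846 (SD, n = 5), a log2 difference of 0.33 (SE 0.0805, limma adjusted p = 0.0125). After correction at 995 bases it was -0.05 (adjusted p = 0.539).

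Nfe2l2 (chromosome 2, 75675513 to 75704641, minus strand) encodes NRF2 itself. Control libraries held 2555, 2680, 2671, 2678 and 2378 normalized counts, and Sirt1 deleted libraries 2384, 2234, 2461, 2435 and 1920. Control library 5 was the lowest control and lay among the Sirt1 deleted libraries. The log2 difference was -0.19 (95% interval -0.34 to -0.03), short of the threshold over all genes (limma adjusted p = 0.0620, exact permutation p = 0.0317). After correction it was -0.17 (limma adjusted p = 0.0834). With median lengths it was -0.10 (limma adjusted p = 0.202), so the size depends on the length used. NRF2 is regulated mostly through the stability of its protein, which RNA does not show.

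**Figure D3:**
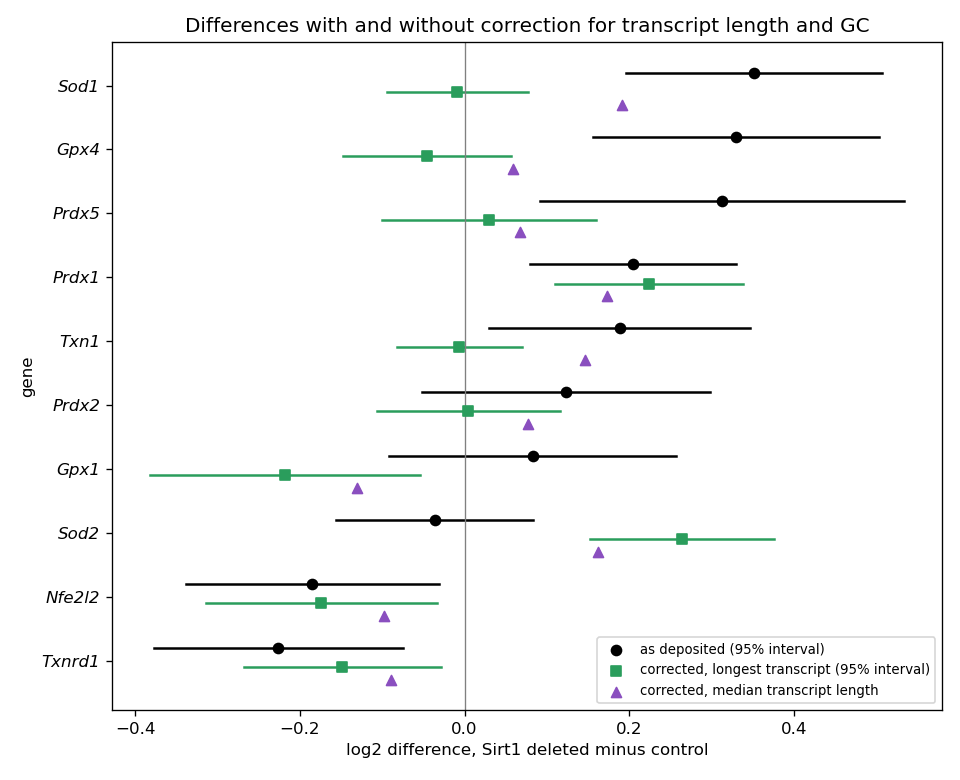
Log2 difference (Sirt1 deleted minus control) of each gene as deposited (black circles), after correction with the longest coding transcript (green squares), both with limma 95% intervals, and after correction with the median transcript length (purple triangles). With the longest transcript Sod1, Gpx4 and Prdx5 move close to 0, Prdx1 stays near 0.20, and Sod2 moves from -0.04 to 0.26. With median lengths Sod1 is at 0.19 and Sod2 at 0.16.

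Libraries of 1 group also differed among themselves in both length slope and gene level. Control library 5 had a length slope of 0.00352, the nearest to 0 of all libraries, and held the highest control value of Sod1, Gpx4, Prdx2, Prdx5, Txn1 and Gpx1 and the lowest of Txnrd1 and Nfe2l2. Sirt1 deleted library 5 had the steepest slope, -0.240, and held the highest value of Sod1, Gpx4, Prdx1, Prdx2, Prdx5 and Txn1 and the lowest of Txnrd1, Sod2 and Nfe2l2. Sirt1 deleted library 1, with a slope of -0.0250, held the lowest value of its group for Prdx1, Prdx2, Txn1, Gpx1, Gpx4 and Sod1. The part of the length trend in the differences of these genes was not tested as a cause. With the slope as a covariate in limma 0 of the 10 were called (0 at an unadjusted p under 0.05), beside 0 of all 13567 tested genes. Slopes ran from 0.00352 to 0.161 in controls and from -0.240 to -0.0250 in Sirt1 deleted libraries. As they do not overlap, slope and group cannot be told apart in that fit.

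**Figure D4:**
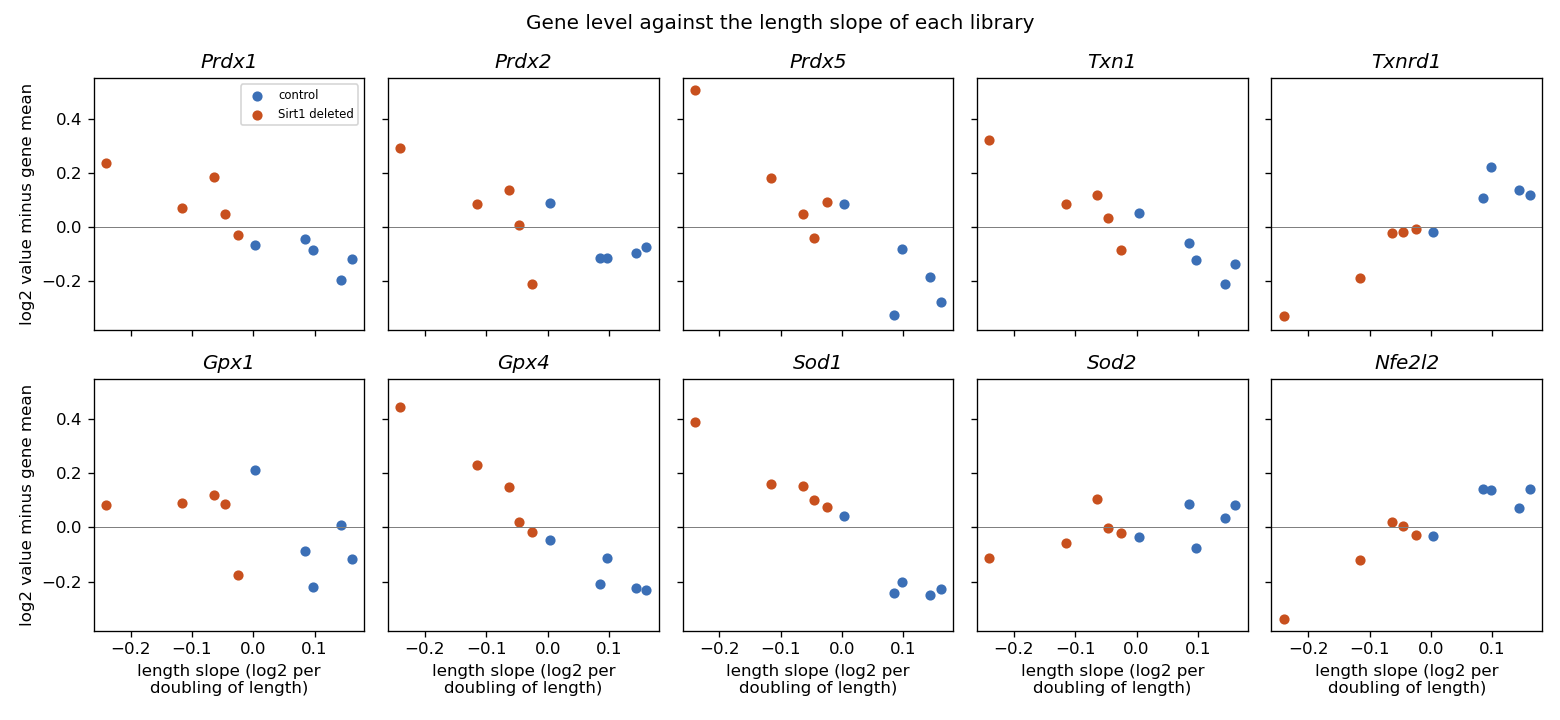
Level of each gene in each library (log2 value minus the mean of the 10 libraries) against the length slope of that library (log2 units per doubling of transcript length); control in blue, Sirt1 deleted in orange. Sod1, Gpx4, Prdx5 and Txn1 go down from left to right and Txnrd1 and Nfe2l2 go up, while Sod2 is nearly flat.

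The number of genes called moved with the libraries used, as did the share called over the whole table. Without control library 1 or 2 it was 2 of the 10 genes, beside 17.2% and 16.2% of all tested genes. Without control library 3 or 4 or Sirt1 deleted library 2 it was 3, beside 24.3%, 23.2% and 20%. Without any other single library it was 4 to 7, beside 25.2% to 34.7%. Sod1 and Gpx4 were called whichever single library was left out. Txnrd1 lost its call in 5 of these 10 fits, Prdx5 in 6 and Prdx1 in 2. After correction the count of 2 was 1 without control library 1 or 2, beside 5.29% and 4.99% of all corrected genes, and 4 without control library 5, beside 17.7%. Without the 3 libraries of steepest length slope (Sirt1 deleted 5, control 2 and control 1) the count was 0 in both kinds of value, where 4 and 2 genes had an unadjusted p under 0.05; 3 genes of the whole table were called as deposited.

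Per kilobase of the longest coding transcript, the control levels were highest for Txn1 (14238 ± 980 normalized counts per kb, SD, n = 5) and Sod1 (11695 ± 1054). Next came Gpx1 (7761 ± 903) and Prdx2 (7526 ± 468), which did not differ beyond their spread, then Prdx1 (6266 ± 252) and Gpx4 (5101 ± 291). Txnrd1 (1516 ± 90.0) and Prdx5 (1396 ± 162) again lay within each other's spread, above Nfe2l2 (1047 ± 52.9) and Sod2 (519 ± 25.4). Several of these places depend on the length used. With median lengths of the coding transcripts Prdx1 stood highest at 21746 ± 873 per kb, and Gpx1 (10571 ± 1230) lay above Prdx2 (8088 ± 503) and within the spread of Sod1. Prdx5 (2457 ± 285) then lay above Txnrd1 (1652 ± 98.0), and Sod2 (963 ± 47.2) stood close to Nfe2l2. Thioredoxin transcript was above that of its reductase per length in these control spleens.

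The antioxidant response element has the core TGACNNNGC, where N is any base, and a match on either strand was sought in the RefSeq promoter windows (GRCm38.p6, 250 bases before to 50 after each start). All 10 genes had a window and 4 held the core, Prdx1, Txnrd1, Sod1 and Nfe2l2, against 14.0% of all 27025 genes with a window. The windows are shown to set the matched letters, in capitals, beside the directions of the genes. They lie at chr4:116685456-116685484 (Prdx1), chr10:82859104-82859132 (Txnrd1), chr16:90220696-90220724 (Sod1) and chr2:75704885-75704913 (Nfe2l2), each read along the strand of its gene.
Prdx1: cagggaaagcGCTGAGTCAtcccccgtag
Txnrd1: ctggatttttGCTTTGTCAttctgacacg
Sod1: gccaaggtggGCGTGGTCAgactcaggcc
Nfe2l2: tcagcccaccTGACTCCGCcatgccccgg
The matches begin 133, 92, 56 and 240 bases before the start on which the window was set, and the first 3 are on the opposite strand. Txnrd1 had 3 windows, and the core was in 1 of them, which lies inside the gene as placed above. As deposited, Prdx1 and Sod1 of these rose, Txnrd1 fell and Nfe2l2 was not called. A match is a description of letters, not a site shown to be bound.

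The other genes of the antioxidant network were taken from 7 lists of 127 genes, 125 of which were in the table and 115 tested. Of these 115, 25 rose, 18 fell and 72 were not called, beside 14.5% of all tested genes called higher and 17.5% lower. The median log2 difference was 0.09 against 0.00 over all tested genes. After correction 11 were called higher and 4 lower, beside 8.49% and 6.14% of all corrected genes, and the median was -0.01. These shares over all genes, as deposited and corrected, also stand beside the counts of each list below. These corrected values rest on the longest coding transcript, 2049 bases for Txn2 against a median of 987, and 1988 for Esd against 822. Corrected calls with median lengths are not given for these genes. Without control library 1 or 2 the number called as deposited was 25 or 23, beside 17.2% and 16.2% of all tested genes.

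In the list of further peroxiredoxin and thioredoxin genes, 3 of 18 rose, 0 fell and 15 were not called. Txn2, the mitochondrial thioredoxin, rose from 3816 ± 140 to 4587 ± 419 normalized counts (log2 difference 0.26, limma adjusted p = 0.0112, groups apart) and kept its call after correction (0.17, adjusted p = 0.0182). Glrx3 and Glrx5, glutaredoxins that handle iron-sulfur clusters, rose by 0.19 and 0.25 and were called after correction as well (0.28 and 0.25). Corrected values called 6 of the 18 higher and 0 lower. The other peroxiredoxins were not called as deposited: Prdx3 (mitochondrial) was at 0.09, Prdx4 (endoplasmic reticulum) at 0.16 and Prdx6 at 0.14, and Prdx6 was called after correction (0.13, limma adjusted p = 0.0444). Txnip, which binds and restrains thioredoxin, was at -0.15, and Txnrd2, the mitochondrial reductase, at -0.07, neither called.

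Of 24 glutathione genes, 3 rose, 1 fell and 20 were not called, and 0 were called after correction in either direction. Slc7a11, the cystine importer that supplies glutathione synthesis, had the lowest difference of all 115 tested genes of these lists. It was 94, 109, 77, 91 and 106 normalized counts in the control libraries and 41, 50, 76, 50 and 38 in the Sirt1 deleted libraries. The groups were apart, narrowly at control library 3 and Sirt1 deleted library 3, and the log2 difference was -0.92 (SE 0.184, limma adjusted p = 0.00855). After correction, with a transcript of 9223 bases, it was -0.52 (adjusted p = 0.0541). Mgst2 rose by 0.60 and Gstp1 by 0.29, with 0.28 and -0.05 after correction. Gclc and Gclm, the subunits of the rate-limiting enzyme of glutathione synthesis, were at -0.14 and 0.00 and not called.

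The list named for superoxide and peroxide removal, which also holds genes with other roles such as Fdx1 and Oxsr1, went both ways. Of its 14 tested genes 3 were called higher, 4 lower and 7 were not called. Fdx1, a mitochondrial ferredoxin, rose from 341 ± 22.9 to 452 ± 36.5 normalized counts (log2 difference 0.40, limma adjusted p = 0.00846) and was still called after correction (0.45, adjusted p = 0.00745). Sesn3 and Oxsr1 fell by 0.53 and 0.33 on the log2 scale and lost their calls after correction. Catalase, Cat, was at -0.10 and not called (limma adjusted p = 0.108).

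The list named for NRF2 control also holds relatives of NRF2 such as Nfe2. Of its 17 tested genes 3 rose, 7 fell and 7 were not called, and 2 were called in each direction after correction. Mafg, a small MAF partner of NRF2, was 431, 469, 374, 457 and 386 normalized counts in the control libraries and 301, 311, 333, 293 and 249 in the Sirt1 deleted libraries. Every Sirt1 deleted library lay below every control. Mafg fell by 0.51 on the log2 scale (SE 0.0968, limma adjusted p = 0.00797) and was called after correction (-0.37, adjusted p = 0.0189). Gsk3b, a kinase that marks NRF2 for destruction, was at -0.47 and Crebbp, a coactivator, at -0.56, both called as deposited and not after correction (-0.11 and -0.22). Nfe2, the erythroid relative of Nfe2l2, was called lower both ways (-0.55 and -0.64), beside the lower erythroid markers above. Keap1 was at 0.11 and not called.

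Of 18 NRF2 target genes, 5 rose, 2 fell and 11 were not called, and after correction 1 was called in each direction. Esd rose by 0.29 (limma adjusted p = 0.0102) and stood at 0.26 after correction (adjusted p = 0.00940). Ftl1, the ferritin light chain, rose by 0.33 and stood at -0.01 after correction, and Abcc1, an exporter of glutathione conjugates, fell by 0.33 on the log2 scale and stood at -0.05. Nqo1 and Hmox1, often read as reporters of NRF2 activity, were not called. Nqo1 was at -0.17 (limma adjusted p = 0.502) and Hmox1 at -0.36 (limma adjusted p = 0.169). Srxn1, another such reporter, is in the list of peroxiredoxin and thioredoxin genes and was not called either (-0.66, limma adjusted p = 0.0996). Outside this list of 18, Prdx1 was called higher and Txnrd1 and Slc7a11 lower as deposited. Hmox1 is also a gene of macrophages, whose markers were lower in the Sirt1 deleted group: 0 of 18 were called higher and 11 lower, they summed to 12767 to 19105 in controls against 7882 to 12197 in Sirt1 deleted libraries, and none was at 0. The part of macrophages in the value of Hmox1 was not tested.

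Among 17 genes of selenoprotein synthesis and further selenoproteins, 7 rose, 3 fell and 7 were not called. Trnau1ap, which binds the selenocysteine transfer RNA, rose by 0.40, and the small selenoproteins Selenoh and Selenow by 0.42 and 0.46. Their corrected differences of 0.16, 0.13 and 0.07 were not called. After correction 0 of the 17 were called higher and 1 lower, Selenop (-0.35), which encodes a secreted selenium carrier. In the list of the NADPH oxidase, which makes superoxide in phagocytes, 1 of 7 tested rose (Cyba, 0.35), 1 fell (Cybb, -0.57) and 5 were not called, among them Rac2 (0.14), and 0 were called after correction. Neutrophil markers, which mark cells rich in this oxidase, were called higher in 2 of 15 and lower in 0, summing to 1938 to 5073 in controls against 2444 to 10123 in Sirt1 deleted libraries with none at 0.

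**Figure D5:**
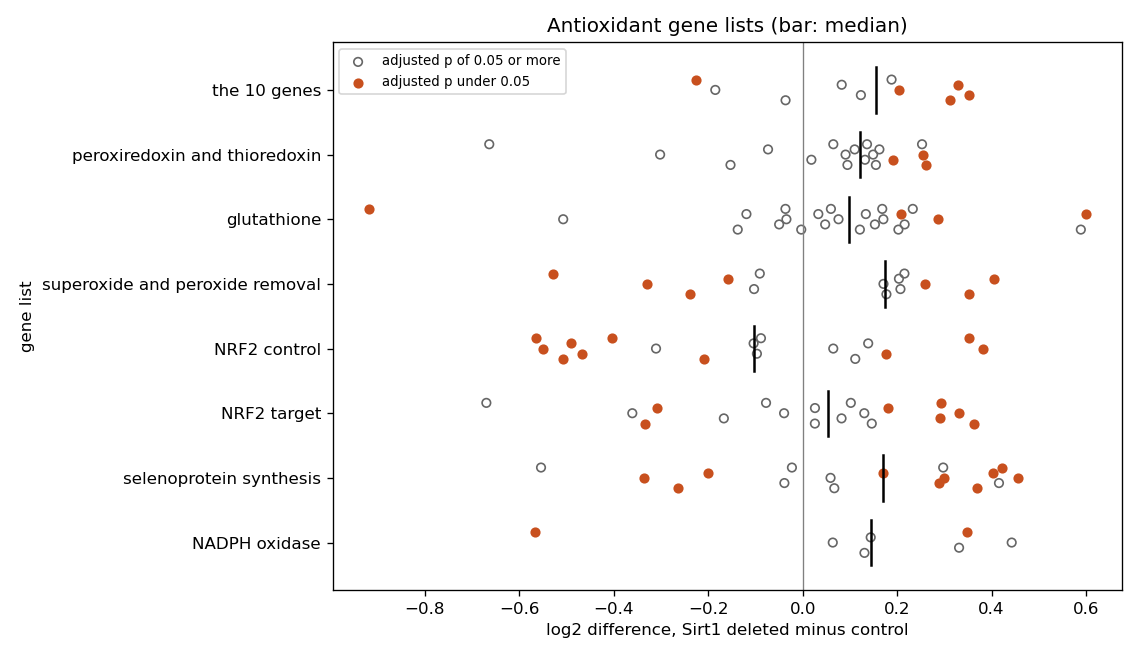
Log2 difference (Sirt1 deleted minus control) of the tested genes in each antioxidant list, as deposited; filled points passed an adjusted p of 0.05 in limma, open points did not, and the black bar is the median of the list. The medians lie between -0.10 and 0.17, with called genes on both sides of 0 in every list but that of peroxiredoxin and thioredoxin genes, which has 3 called higher and 0 lower.

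The genes most like Prdx1, Txnrd1 and Nfe2l2 in their pattern were sought by Pearson correlation of log2 values over the 10 libraries after the group means were subtracted. These correlations are descriptions over libraries that share the length trend. For Prdx1 they were Gmnn (0.96), Med6 (0.96) and Tmem141 (0.95, with a control mean of 25.5 normalized counts); after correction these were 0.39, 0.82 and 0.85. For Txnrd1 they were Ehd4 (0.98), Tollip (0.98) and Igf2bp3 (0.97), which have transcripts of 3730, 3788 and 4345 bases beside the 3622 of Txnrd1, and they were at 0.96, 0.97 and 0.91 after correction. For Nfe2l2 they were Otud6b (0.98), Thap12 (0.98) and Bmp2k (0.98), at 0.97, 0.96 and 0.93 after correction. Their transcripts have 3266, 3723 and 7387 bases beside the 2475 of Nfe2l2. Those of Gmnn, Med6 and Tmem141 have 1127, 1059 and 795 bases beside the 2294 of Prdx1.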

How the data were processed

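Per the labels' protocols, RNA came from spleen cell suspensions after red cell lysis, in strand-specific libraries. Per the submitters' processing notes, the authors used kallisto 0.44.0 and DESeq (no version) with mm10; what they deposited is signal, normalized read counts with decimals, 1 value per gene symbol and library. Annotation, gene filter, use of strand and the handling of reads shared with pseudogenes are not given in the sources used here. All 10 columns were used and 0 were left out. Depth was estimated from the step between the lowest values (84.8% to 91.3% of them within 0.1 of a multiple).

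Genes with a value of 10 or more in at least 5 libraries were tested as log2(value + 1) with limma 3.58.1 (trend, R 4.3.3), control against Sirt1 deleted, two-sided, with Benjamini-Hochberg adjustment over all tested genes. Fold changes are on that log2 scale. Single genes were also tested by exact permutation (252 splits). The correction subtracts natural splines (5 degrees of freedom) on log2 length and GC content of the longest coding transcript in GENCODE M21, fitted per library to deviations from gene means; it also removes a true difference that follows length. Tables and figures used Python 3.11.15. The fit was tested on simulated data.

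Members, lists, tests and alternatives were chosen with earlier results of these data known. Named are all 10 members, Sirt1, the 3 smallest p of each list, and the 3 genes most like Prdx1, Txnrd1 and Nfe2l2; other genes were named after their values were seen. Replicate numbers follow the order of the series and pair nothing. Alternatives were pseudocounts of 0.5 and 5, robust limma, no filter or a minimum of 50, quantile normalization, TMM factors, array weights, equal totals, the correction, 4 covariate sets and left-out libraries.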

Additional observations from a re-analysis of the deposited data

Results flagged for a closer look

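By Dixon's ratio of gap to range, a library stood apart from the other 4 of its group in 9 of 64 groups of values tested over 32 genes. Of the 20 groups of the 10 antioxidant genes it was 4. Chance alone would set apart about 1 in 20 independent groups. All groups come from the same 10 libraries, so they are not independent, and the counts were not tested against that share. Control library 5 held 13460 normalized counts of Prdx2 against 12002 in the next control, 8693 of Sod1 against 7346, and 991 of Selenow against 844. It was also low for Sesn3 (555 against 728) and Oxsr1 (2850 against 3170). Its length slope was the nearest to 0 of the controls. Sirt1 deleted library 5, which has the steepest length slope, was high for Sod1 (11039 against 9440), Txn2 (5324 against 4500) and Mgst2 (820 against 513). Sirt1 deleted library 1 was low for Gpx1 (7547 against 9027); the same library had the lowest summed erythroid level, 51151, in suspensions that had gone through red cell lysis, and the part of red cells in that value was not tested.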

How the results depend on the processing

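No paired analysis was possible because the labels give no replicate number that links a control with a Sirt1 deleted sample. Pseudocounts, filters, TMM factors, equal totals, quantile normalization, robust limma and array weights left 4 to 7 of the 10 genes called. The share called over all tested genes in these settings was 24% to 39.2%. They turned no direction of a named gene but that of Sod2 (0.0279 with quantile normalization). The number called was 2 with the correction (beside 14.6% of all corrected genes) and 3 with erythroid markers as a covariate (beside 19.6% of all tested genes). It was 0 in limma with the length slope, with B cell markers, with macrophage and neutrophil markers and without the 3 steepest libraries. In these 4 settings 0, 3, 3 and 4 had an unadjusted p under 0.05, beside 4.25%, 25.8%, 20.5% and 23.3% of all tested genes. Leaving out 1 library gave 2 to 7, beside 16.2% to 34.7%. For the other antioxidant genes the correction left 15 called, and those 4 settings 0 (5, 37, 30 and 31 unadjusted), with 23 to 47 when 1 library was left out. Over the whole table these 4 settings called 0, 1, 0 and 3 genes. The length slopes of the groups do not overlap, so the fit with the slope cannot tell slope from group. After correction the number called was 3 with median lengths, beside 23.4% of all corrected genes, and 0 without the steepest libraries (2 unadjusted). With 1 library left out it was 1 to 4, beside 4.99% to 17.7%.

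The signs that turned are given as log2 differences, and the cause was not tested. With the length slope they were -0.18 for Prdx2, -0.12 for Prdx5 and Txn1, 0.0441 for Txnrd1, -0.11 for Gpx1, -0.0192 for Gpx4, 0.0851 for Sod2 and 0.0872 for Nfe2l2; -0.0670 for Mgst2, -0.0328 for Gstp1, -0.0259 for Ftl1, -0.12 for Cyba and Med6, 0.31 for Cybb, -0.0478 for Rac2, 0.0833 for Ehd4, 0.0545 for Tollip, 0.0895 for Otud6b and 0.0995 for Thap12. With the correction they were -0.00663 for Txn1, -0.22 for Gpx1, -0.0453 for Gpx4, -0.00878 for Sod1, 0.26 for Sod2, -0.0535 for Gstp1, -0.00793 for Ftl1 and -0.0743 for Cyba. Sod2 was at 0.00377 with erythroid, 9.12e-05 with B cell and 0.00841 with macrophage and neutrophil markers, and at 0.0137 without the steepest libraries. Corrected values without those libraries were -0.0136 for Prdx2, -0.00622 for Prdx5 and 0.0310 for Sod1; with median lengths Txn1 was at 0.15, Gpx4 at 0.0593 and Sod1 at 0.19. With 1 library left out, corrected Prdx2 ran from -0.0228 to 0.0489, Prdx5 from -0.0151 to 0.0583, Txn1 from -0.0224 to 0.00493 and Sod1 from -0.0236 to 0.0116, and Tmem141 as deposited from -0.42 to 0.0144. Depth limits none of the 10 genes, whose counting error was at most 2.82%.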
